A study of Mus musculus with 15 samples.

Results

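The transcripts of 44 genes of DNA replication and S phase were followed in cultured mouse lymphatic endothelial cells (LECs) given VEGF-C, a lymphatic growth factor whose receptor is encoded by Flt4. The genes were taken by name from a deposited table of 45706 genes, and all 44 were found in it and had enough counts to be tested. The cells were LECs that carried podoplanin and CD31 and lacked CD45, obtained from several lymph node sites of female C57Bl/6 mice that were pooled. They were kept in MEMα medium with 10% serum and were either left unstimulated or cultured for 72 h with murine VEGF-C made in HEK-293E cells, at 10 or 100 ng/mL. Each of the 3 groups had 5 poly-A selected, stranded RNA libraries, lettered A to E. Whether the 5 libraries of a dose were grown as independent cultures is not stated in the labels, and the p-values therefore reflect library-to-library spread that may be technical.

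A cell copies its genome once per division. In G1 the origin recognition complex, Cdc6 and Cdt1 load the Mcm helicase onto origins, and at the start of S phase Cdc45 and the GINS complex join it to form the active helicase. DNA polymerase alpha with primase begins each strand, the clamp Pcna holds the processive polymerases, and ribonucleotide reductase and thymidylate synthase supply nucleotides. Many of these genes are transcribed together late in G1 under E2F factors, and G2 and mitosis genes follow later. In lymphatic endothelium VEGF-C is known as a signal for survival, migration and proliferation.

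The start regions of these genes were searched because E2F-type sites are known from many of them. RefSeq windows on GRCm38.p6, from 250 bases before to 50 bases after each start, were at hand for 35 of the 44 genes. An E2F-type match was any of TTTCCCGC, TTTCGCGC, TTTGCCGC or TTTGGCGC on either strand, with overlapping matches counted separately. It was present for 15 of the 35 genes (42.9%), against 704 of 27025 genes with a window (2.6%). A match describes letters only and is no evidence of binding. The 250 bases before the start are shown for 4 genes that changed at 100 ng/mL, with E2F-type matches in capitals. Mcm6 and Gins3 represent the helicase and its activator, and Pola1 and Pola2 encode partner subunits of polymerase alpha, of which Pola1 has a match and Pola2 has none. The stretches are chr1:128359706-128359955 (minus strand) for Mcm6, chr8:95633309-95633558 (plus strand) for Gins3, chrX:93632156-93632405 (minus strand) for Pola1 and chr19:5964207-5964456 (minus strand) for Pola2, each printed 5′ to 3′ on the gene's strand.
Mcm6: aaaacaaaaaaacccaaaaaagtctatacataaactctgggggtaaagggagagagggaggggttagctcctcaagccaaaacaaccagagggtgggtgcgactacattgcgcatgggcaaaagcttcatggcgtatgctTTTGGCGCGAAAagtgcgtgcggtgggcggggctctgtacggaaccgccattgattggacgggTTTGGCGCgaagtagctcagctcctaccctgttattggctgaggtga
Gins3: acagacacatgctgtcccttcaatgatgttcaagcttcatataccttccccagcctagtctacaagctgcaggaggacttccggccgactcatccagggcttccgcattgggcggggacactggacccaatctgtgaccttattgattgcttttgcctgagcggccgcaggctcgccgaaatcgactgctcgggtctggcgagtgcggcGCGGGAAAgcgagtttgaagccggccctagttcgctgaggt
Pola1: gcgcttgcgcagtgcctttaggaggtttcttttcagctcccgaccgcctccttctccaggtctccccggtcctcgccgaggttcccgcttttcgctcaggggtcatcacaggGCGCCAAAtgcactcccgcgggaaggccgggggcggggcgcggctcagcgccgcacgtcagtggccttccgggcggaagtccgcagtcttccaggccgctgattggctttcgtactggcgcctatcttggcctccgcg
Pola2: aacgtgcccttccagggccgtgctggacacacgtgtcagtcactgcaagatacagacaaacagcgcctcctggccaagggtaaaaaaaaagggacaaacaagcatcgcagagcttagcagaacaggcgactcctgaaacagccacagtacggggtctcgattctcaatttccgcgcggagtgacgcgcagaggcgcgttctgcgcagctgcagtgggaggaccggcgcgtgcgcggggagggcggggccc
In Mcm6 3 matches began at -110, -106 and -47, counted from the first transcribed base as 0, and the first 2 overlap as 1 run on opposite strands. In Gins3 the match began at -41 and in Pola1 at -138. Among the other genes that changed in any comparison below, Mcm3 had matches at 19 and 38 and Cdt1 had 1 at 32. Mcm2, Pcna, Tyms, Ccne1, Orc6, Cdc45, Rpa2 and Chaf1b had none in the window. Of the other lists, 9 of 30 other replication genes (30%), 8 of 20 E2F, RB and G1 to S regulators (40.0%) and 1 of 25 G2 and mitosis genes (4.0%) held an E2F-type match. The NF-Y-type motif CCAAT was present for 62.9% of the replication and S phase genes and 41.1% of all genes, and 84.0% of the G2 and mitosis genes. The CHR-type motif TTTGAA, an element known from late cell cycle genes, was present for 11.4% of the replication and S phase genes, 68.0% of the G2 and mitosis genes and 20.2% of all genes.

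**Figure D1:**
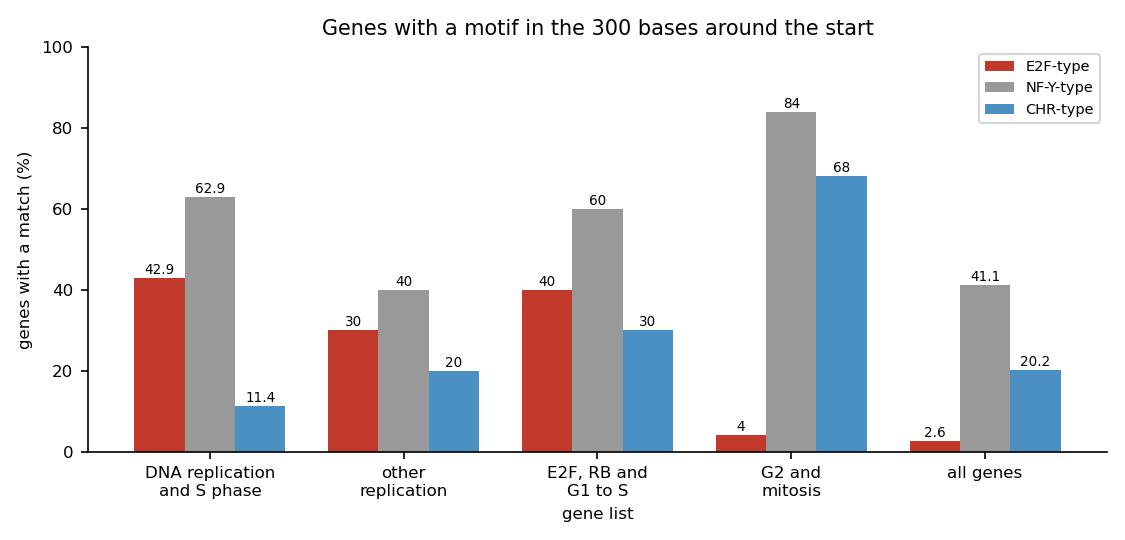
Share of genes (%, bars) with an E2F-type, NF-Y-type or CHR-type match in the 300 bases around the start, for 5 gene lists. E2F-type matches stood at 42.9% of the replication and S phase genes and 2.6% of all genes, and CHR-type matches at 68.0% of the G2 and mitosis genes.

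Estimated counts summed to between 27784906 and 38590841 per library. In log2 CPM, counts scaled to library size after TMM normalisation, the first principal component, with 64.8% of the variance, parted the 100 ng/mL libraries from the other 10. On the second (12.6%) the lowest values were -41.1 for unstimulated E, -28.2 for library D at 10 ng/mL and -45.1 for library B at 100 ng/mL, and counts below are given with and without them. A library's score is the mean over the 44 genes of its log2 CPM minus the gene's mean over the 15 libraries. The scores were -0.16, -0.032, -0.29, -0.028 and 0.37 in unstimulated libraries A to E, -0.12, -0.36, -0.29, 0.20 and -0.14 at 10 ng/mL and 0.14, 0.24, 0.082, 0.15 and 0.24 at 100 ng/mL. The 5 libraries at 100 ng/mL lay close together (SD 0.071) and above 4 of the 5 unstimulated libraries, but unstimulated E was higher than all of them. The unstimulated and 10 ng/mL libraries spread more widely, with SDs of 0.25 and 0.22, and 10 ng/mL D stood above its group.

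The same libraries were high or low for nearly every gene. Unstimulated E had the highest value of its group for 41 of the 44 genes, with Orc6, Pola2 and Pole as the exceptions, and unstimulated C had the lowest for 35. At 10 ng/mL library D was highest for 39 genes and B lowest for 30. At 100 ng/mL the order was looser, with C lowest for 21 genes and B highest for 19. The list of 30 G2 and mitosis genes put the same unstimulated and 10 ng/mL libraries on top. Its scores were -0.14, 0.12, -0.24, 0.17 and 0.62 in unstimulated A to E, -0.15, -0.54, -0.37, 0.47 and -0.22 at 10 ng/mL and -0.12, 0.24, 0.25, -0.15 and 0.077 at 100 ng/mL. At 100 ng/mL its highest libraries were B and C, while C was the lowest of the group for the replication and S phase genes.

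**Figure D2:**
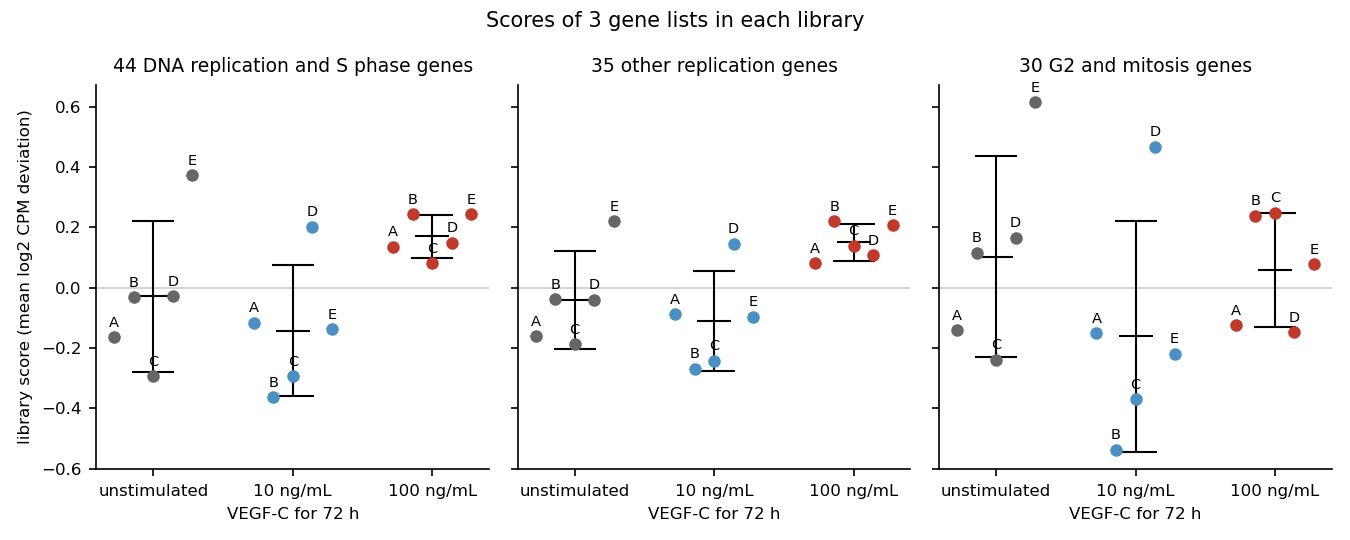
Scores (mean log2 CPM deviation) of each library for the 44 genes, 35 other replication genes and 30 G2 and mitosis genes; points are libraries A to E and bars are the mean ± SD of 5. Unstimulated E reached 0.37 for the 44 genes, above every 100 ng/mL library, and 0.62 for the G2 and mitosis genes.

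**Figure D3:**
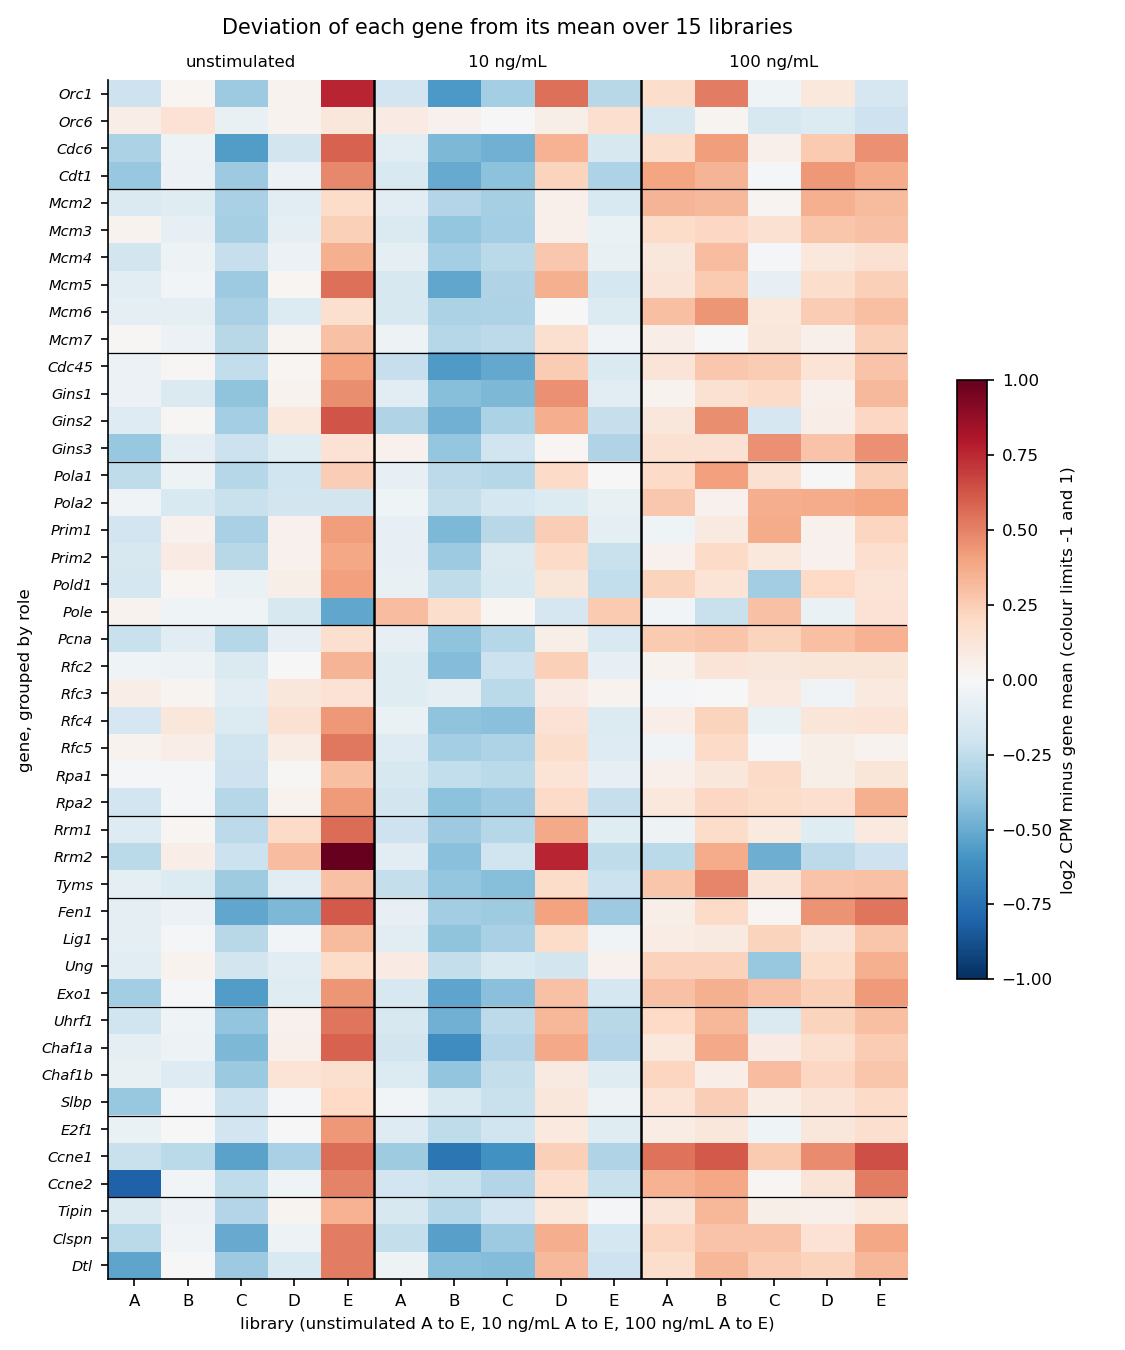
Log2 CPM of each of the 44 genes (rows, by role) minus its mean over 15 libraries (columns). Unstimulated E and 10 ng/mL D form high columns, 100 ng/mL forms a block of mostly positive values, and Pole, Pola2 and Orc6 stand out as rows of another pattern.

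At 100 ng/mL against unstimulated, the question being which replication genes differed after 3 days of the higher dose, 9 of the 44 genes rose and 1 fell. The genes that rose were Pola2, Pcna, Mcm6, Mcm2, Gins3, Ccne1, Tyms, Pola1 and Mcm3, by 0.26 to 0.62 on the log2 scale, and Orc6 fell. A change was called at an adjusted p under 0.05 in edgeR's quasi-likelihood test with Benjamini-Hochberg adjustment over the 17650 genes tested. The 9 genes are 20.5% of the list, next to 21.4% of all genes tested that were called higher, so the share that rose was near the background. The 1 gene that fell is 2.27%, against 21.5% of all genes called lower. The fold change was above 0 for 39 genes and below 0 for 5, with a median of 0.17, against 0.0078 over all genes tested. The median was 0.11 without unstimulated C and 0.29 without unstimulated E. For 3 genes, Gins3, Pola2 and Pcna, every 100 ng/mL library lay above every unstimulated one, as for 13.5% of all genes, and for none did every library lie below, as for 13.7% of all genes. Without unstimulated E 20 genes rose (45.5%, against 21.0% of all genes in that fit). With library D of 10 ng/mL and library B of 100 ng/mL left out as well 24 did (54.5%, against 23.1%). Unstimulated E was singled out in these same data and was the highest of its group for 41 of the 44 genes. Its removal lowers the unstimulated mean of those genes, so these larger counts are no independent support for a rise. Without unstimulated B or C 5 genes rose (11.4%, against 19.5% of all genes in each fit), and Mcm2, Mcm6, Gins3, Pola2 and Pcna made up those 5. In each of these 4 fits Orc6 was the 1 gene that fell.

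**Figure D4:**
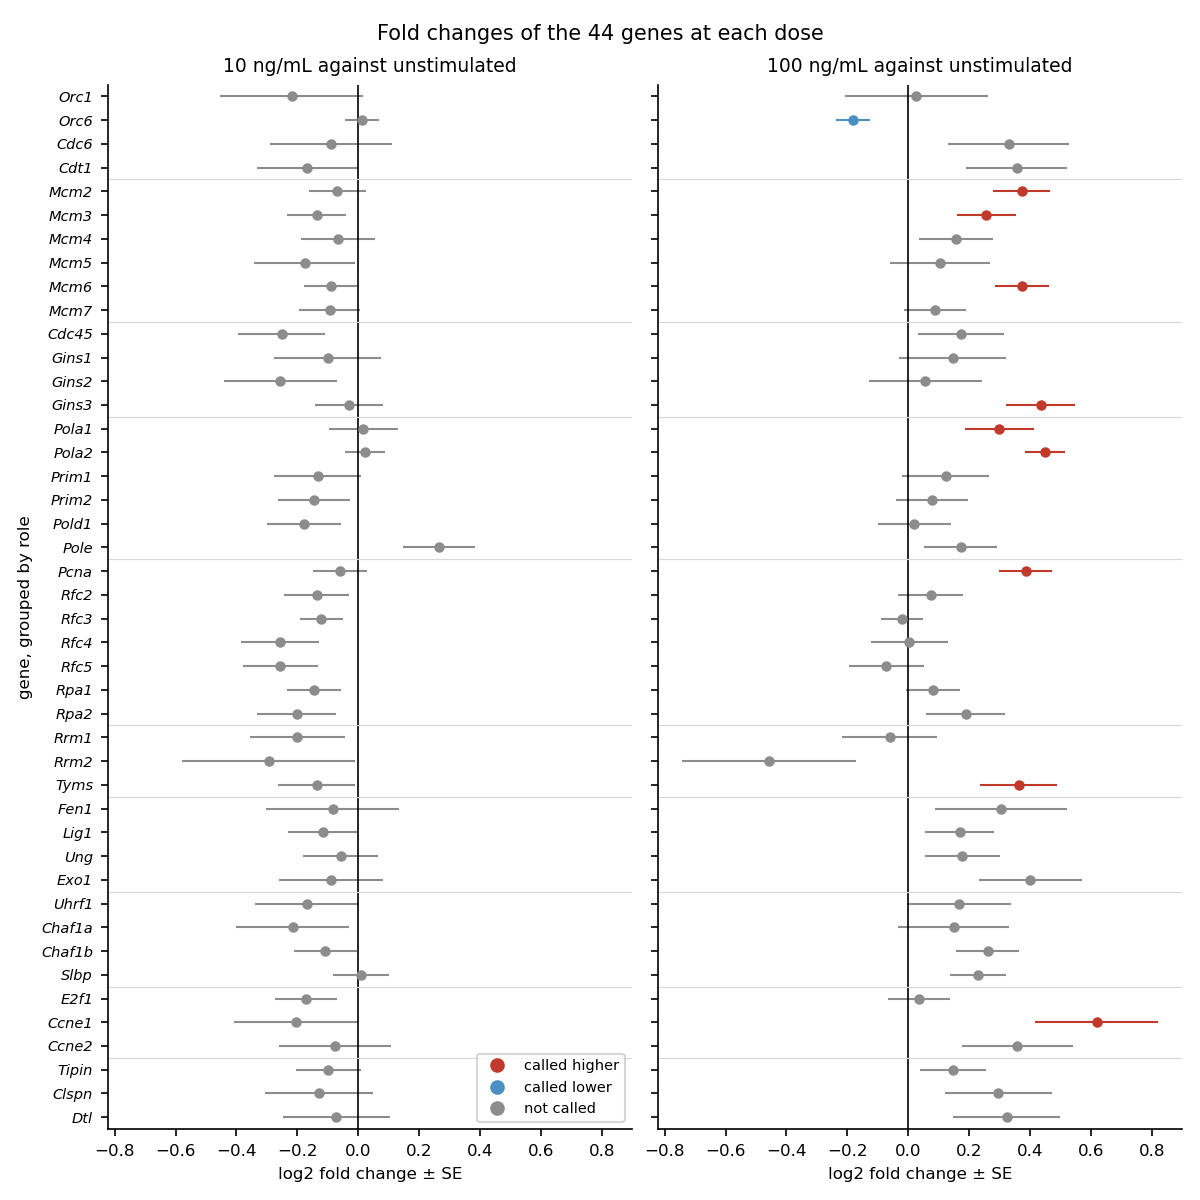
Log2 fold changes (points, with SE bars) of the 44 genes at 10 and 100 ng/mL, each against unstimulated. At 10 ng/mL the median was -0.13 and no gene was called, while at 100 ng/mL it was 0.17, with 9 genes called higher and Orc6 lower.

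Of the licensing genes, Orc6 fell and Orc1, Cdc6 and Cdt1 were not called at 100 ng/mL against unstimulated. Orc6 encodes the smallest subunit of the origin recognition complex (chr8:85299632-85308278 on the plus strand). Orc6 measured 42.8, 45.3, 38.9, 41.9 and 44.4 CPM in unstimulated libraries A to E, 43.4, 42.2, 40.9, 42.6 and 46.1 CPM at 10 ng/mL and 36.7, 41.8, 36.8, 37.3 and 35.5 CPM at 100 ng/mL. Of the 100 ng/mL libraries 4 lay below every other library, and B lay among the unstimulated ones. The log2 fold change was -0.18 ± 0.055 (SE, adjusted p = 0.0147) against unstimulated and -0.19 ± 0.055 (SE, adjusted p = 0.0109) against 10 ng/mL. In the annotation the exons of Orc6 share 171 bases with Vps35 on the other strand, and it is unknown whether the counting used strand. Vps35 rose by 0.26 ± 0.079 (SE, adjusted p = 0.0161) at 100 ng/mL against unstimulated. Cdt1 loads the Mcm helicase together with Cdc6. Cdt1 measured 17.7, 22.1, 17.9, 22.02 and 32.0 CPM in unstimulated libraries A to E, 20.7, 16.2, 17.3, 26.8 and 18.6 CPM at 10 ng/mL and 30.2, 29.2, 22.8, 31.0 and 29.7 CPM at 100 ng/mL. Every 100 ng/mL library lay above unstimulated A to D, and unstimulated E was the highest of all 15. Cdt1 was not called against unstimulated, at 0.36 ± 0.17 (SE, 95% interval 0.030 to 0.68, adjusted p = 0.0985), and rose against 10 ng/mL by 0.52 ± 0.17 (SE, adjusted p = 0.0211). Cdc6 is the loading ATPase. Cdc6 measured 7.03, 8.48, 5.92, 7.73 and 13.2 CPM in unstimulated libraries A to E, 8.11, 6.42, 6.28, 11.2 and 7.85 CPM at 10 ng/mL and 9.93, 11.8, 9.07, 10.51 and 12.04 CPM at 100 ng/mL. Unstimulated E was the highest library, and A to D lay below all of the 100 ng/mL ones. Cdc6 was called in neither comparison, at 0.33 ± 0.20 (SE, adjusted p = 0.202) and 0.42 ± 0.20 (SE, adjusted p = 0.109). Orc1, the largest subunit of the origin recognition complex, had the fold change nearest 0 of the group, 0.027 ± 0.23 (SE, 95% interval -0.43 to 0.49, adjusted p = 0.939) against unstimulated.

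The Mcm2 to Mcm7 proteins form the ring of the replicative helicase. Mcm2, Mcm3 and Mcm6 rose at 100 ng/mL against unstimulated, and Mcm4, Mcm5 and Mcm7 were not called. Mcm2 measured 91.3, 92.4, 80.3, 93.2 and 114 CPM in unstimulated libraries A to E, 92.9, 82.0, 80.0, 104 and 90.7 CPM at 10 ng/mL and 128, 126, 103, 129 and 125 CPM at 100 ng/mL. The 100 ng/mL libraries except C lay above all others, and C lay below unstimulated E and 10 ng/mL D. Mcm2 (chr6:88883474-88898780 on the minus strand) rose by 0.37 ± 0.095 (SE, adjusted p = 0.00523) against unstimulated. Mcm6 measured 117, 117, 99.6, 114 and 139 CPM in unstimulated libraries A to E, 112, 100.17, 100.62, 125 and 114 CPM at 10 ng/mL and 154, 169, 134, 149 and 154 CPM at 100 ng/mL. All 100 ng/mL libraries lay above every 10 ng/mL library, and unstimulated E lay above 100 ng/mL C. Mcm6 (chr1:128331590-128359664 on the minus strand) rose by 0.37 ± 0.087 (SE, adjusted p = 0.00294). Mcm3 measured 114, 105, 88.2, 104 and 131 CPM in unstimulated libraries A to E, 100.22, 85.0, 87.4, 115 and 106 CPM at 10 ng/mL and 126, 128, 123, 135 and 136 CPM at 100 ng/mL. Unstimulated E lay within the range of the 100 ng/mL libraries, and the other 9 libraries lay below it. Mcm3 rose by 0.26 ± 0.10 (SE, adjusted p = 0.0458), a call kept in 11 of 27 alternative fits with the threshold unchanged and lost without any 1 of unstimulated A to D. Against 10 ng/mL Mcm6, Mcm2 and Mcm3 rose by 0.46 ± 0.087 (SE, adjusted p = 0.000641), 0.44 ± 0.095 (SE, adjusted p = 0.00183) and 0.39 ± 0.10 (SE, adjusted p = 0.00504).

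The 3 uncalled subunits had log2 fold changes of 0.16 (Mcm4), 0.10 (Mcm5) and 0.088 (Mcm7) against unstimulated. Per length, the RPKM ratio of Mcm6 to Mcm2 was 0.90 ± 0.055 at 100 ng/mL and 0.90 ± 0.020 in unstimulated cells (SD, n = 5 each), with a coefficient of variation of 3.75% over the 15 libraries. The ratio of Mcm5 to Mcm2 was 0.67 ± 0.030 at 100 ng/mL and 0.80 ± 0.088 in unstimulated cells. That of Mcm7 to Mcm2 was 0.30 ± 0.038 and 0.36 ± 0.011 in the same order. For Mcm5 the ranges of the 2 groups did not overlap, at 0.63 to 0.70 and 0.71 to 0.94, and for Mcm7 they did, at 0.27 to 0.36 and 0.35 to 0.38. The ratio of Mcm4 to Mcm2 was 0.55 ± 0.041 and 0.63 ± 0.035. Its ranges overlapped, at 0.51 to 0.60 and 0.58 to 0.68. The shared denominator, Mcm2, was itself called higher, and how often ratios of other genes separate the groups was not counted. Mcm7 shares 557 exonic bases with Cops6, Ap4m1 and 2 microRNA genes in the annotation. Its listed length, 3879 bases, is close to the 3869 exonic bases that it does not share. How reads from the shared bases were counted is not given, so its level is uncertain.

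Cdc45 and the GINS proteins turn the loaded Mcm ring into a working helicase. Gins3, a subunit of the GINS complex (chr8:95633453-95645060 on the plus strand), rose. Gins3 measured 6.16, 7.49, 6.92, 7.36 and 8.86 CPM in unstimulated libraries A to E, 8.27, 6.12, 6.996, 8.12 and 6.502 CPM at 10 ng/mL and 8.91, 8.92, 11.1, 9.82 and 11.0 CPM at 100 ng/mL. The lowest 100 ng/mL library, A, lay just above the highest unstimulated one, E. Gins3 rose by 0.43 ± 0.11 (SE, adjusted p = 0.0056) against unstimulated and by 0.47 ± 0.11 (SE, adjusted p = 0.00399) against 10 ng/mL. Cdc45 measured 22.1, 23.2, 19.4, 23.3 and 30.5 CPM in unstimulated libraries A to E, 19.6, 15.5, 16.1, 27.5 and 20.8 CPM at 10 ng/mL and 25.1, 27.7, 27.5, 25.3 and 28.1 CPM at 100 ng/mL. Unstimulated E was the highest library, and unstimulated A to D lay below all of the 100 ng/mL ones. Cdc45 was not called against unstimulated, at 0.17 ± 0.14 (SE, 95% interval -0.11 to 0.45, adjusted p = 0.356), and rose against 10 ng/mL by 0.43 ± 0.14 (SE, adjusted p = 0.0274). It shares 209 exonic bases with Ufd1 on the other strand. The smallest fold change of this group against unstimulated was that of Gins2, at 0.056 ± 0.19 (SE, 95% interval -0.31 to 0.42, adjusted p = 0.839), and Gins2 shares 2758 exonic bases with Gse1.

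DNA polymerase alpha starts each new strand with a primer made by primase, and polymerases delta and epsilon extend it. Both subunits of polymerase alpha that were followed rose at 100 ng/mL against unstimulated. Pola2, its accessory B subunit (chr19:5940542-5964202 on the minus strand), had the smallest adjusted p of the 44 genes. Pola2 measured 36.6, 33.8, 32.3, 33.1 and 33.1 CPM in unstimulated libraries A to E, 36.4, 31.8, 33.3, 34.2 and 35.7 CPM at 10 ng/mL and 45.3, 38.7, 48.5, 48.6 and 49.5 CPM at 100 ng/mL. Every 100 ng/mL library lay above the other 10, with B the lowest, and unstimulated E and 10 ng/mL D were not high. Pola2 rose by 0.45 ± 0.066 (SE, adjusted p = 6.86e-05) against unstimulated and by 0.43 ± 0.066 (SE, adjusted p = 0.000118) against 10 ng/mL. Pola1 encodes the catalytic subunit. Pola1 measured 38.6, 44.5, 37.7, 40.2 and 54.6 CPM in unstimulated libraries A to E, 43.5, 38.4, 37.8, 52.5 and 46.1 CPM at 10 ng/mL and 52.5, 61.1, 51.4, 46.3 and 54.2 CPM at 100 ng/mL. Unstimulated E and 10 ng/mL D lay within the range of the 100 ng/mL libraries. Pola1 rose by 0.30 ± 0.11 (SE, adjusted p = 0.0443) against unstimulated, a call kept in 11 of the 27 alternative fits at that threshold, and was not called against 10 ng/mL, at 0.28 ± 0.11 (SE, adjusted p = 0.0588). The primase genes Prim1 and Prim2 had fold changes of 0.12 and 0.078, and Pold1, the catalytic subunit of polymerase delta, had the lowest of the group, 0.021 ± 0.12 (SE, 95% interval -0.22 to 0.26, adjusted p = 0.91). Pole, the catalytic subunit of polymerase epsilon, was at 0.17 ± 0.12 (SE, 95% interval -0.062 to 0.41, adjusted p = 0.269) against unstimulated.

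**Figure D5:**
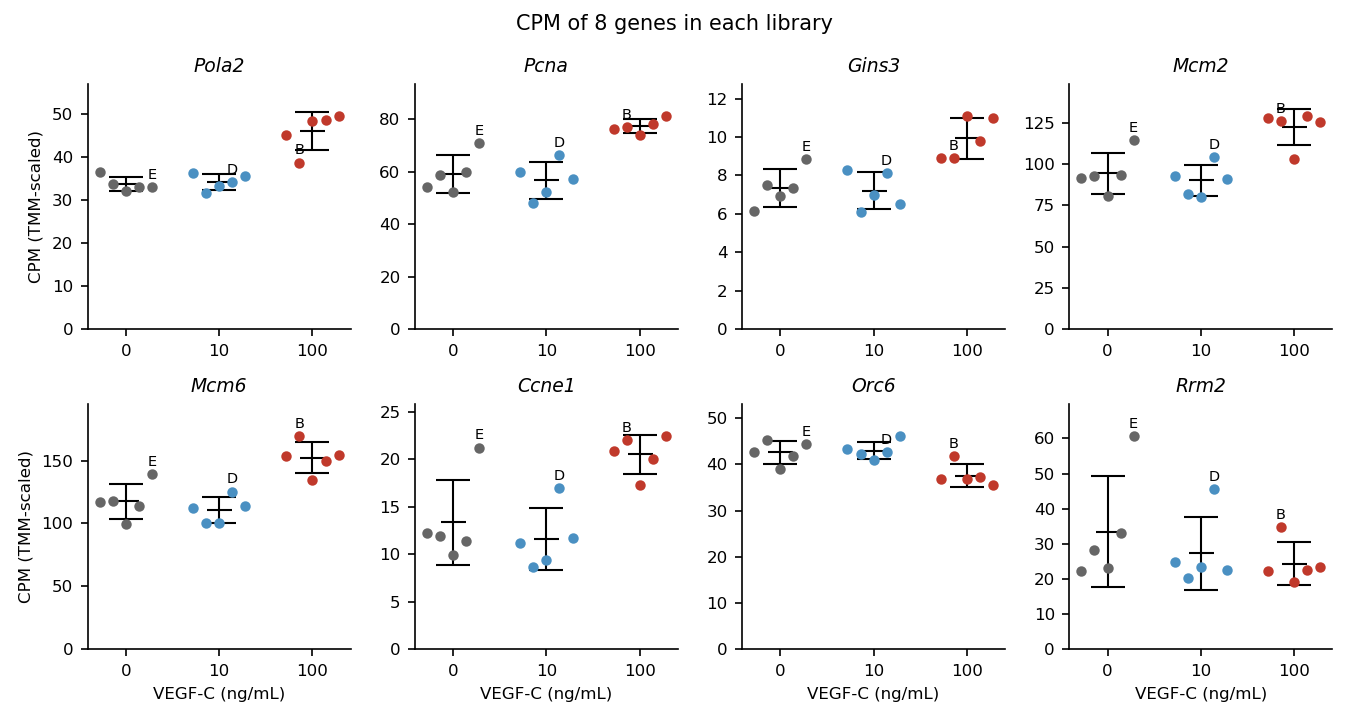
CPM of 8 genes in each library by VEGF-C dose, with the mean ± SD of 5 as bars; letters mark unstimulated E, library D at 10 ng/mL and library B at 100 ng/mL. Pola2 and Pcna at 100 ng/mL lie above every other library, Orc6 lies lower in 4 of 5, and Rrm2 is highest in unstimulated E.

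Pcna encodes the sliding clamp that holds polymerases on DNA (chr2:132249162-132253314 on the minus strand), and it was the single gene to rise against unstimulated among the clamp, its loader and the single-strand binding proteins. Pcna measured 54.4, 58.6, 52.1, 59.9 and 70.8 CPM in unstimulated libraries A to E, 60.0, 48.0, 52.1, 66.3 and 57.2 CPM at 10 ng/mL and 76.2, 76.9, 74.1, 78.3 and 81.1 CPM at 100 ng/mL. Every 100 ng/mL library lay above the other 10. Pcna rose by 0.39 ± 0.088 (SE, adjusted p = 0.00259) against unstimulated and by 0.45 ± 0.088 (SE, adjusted p = 0.000965) against 10 ng/mL. Rpa2 encodes a subunit of replication protein A, which coats single-stranded DNA. Rpa2 measured 23.5, 26.6, 21.99, 27.5 and 36.1 CPM in unstimulated libraries A to E, 23.5, 20.2, 20.8, 30.5 and 22.9 CPM at 10 ng/mL and 28.8, 31.0, 30.5, 30.03 and 34.3 CPM at 100 ng/mL. The highest of the 15 libraries was unstimulated E, and 10 ng/mL D lay within the 100 ng/mL range. Rpa2 was at 0.19 ± 0.13 (SE, 95% interval -0.066 to 0.44, adjusted p = 0.267) against unstimulated, and rose against 10 ng/mL by 0.39 ± 0.13 (SE, adjusted p = 0.0264). Of the clamp loader genes Rfc2 to Rfc5 none was called in either comparison, and Rfc5 had the lowest fold change of the group against unstimulated, -0.072 ± 0.12 (SE, 95% interval -0.31 to 0.17, adjusted p = 0.677).

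The nucleotide supply genes differed among themselves. Tyms, which encodes thymidylate synthase, rose, and the ribonucleotide reductase genes Rrm1 and Rrm2 were not called. Tyms measured 15.97, 15.4, 13.2, 15.8 and 20.8 CPM in unstimulated libraries A to E, 14.4, 13.0, 12.6, 19.3 and 14.7 CPM at 10 ng/mL and 20.6, 23.9, 18.6, 20.7 and 20.9 CPM at 100 ng/mL. Unstimulated E and 10 ng/mL D lay within the 100 ng/mL range, and the other 8 of these libraries lay below it. Tyms rose by 0.36 ± 0.13 (SE, adjusted p = 0.0302) against unstimulated, a call kept in 17 of the 27 alternative fits at the same threshold, and by 0.50 ± 0.13 (SE, adjusted p = 0.00566) against 10 ng/mL. Rrm2 encodes the small, cell cycle regulated subunit. Rrm2 measured 22.2, 28.1, 23.1, 33.2 and 60.6 CPM in unstimulated libraries A to E, 24.9, 20.1, 23.4, 45.6 and 22.5 CPM at 10 ng/mL and 22.3, 34.8, 19.1, 22.4 and 23.3 CPM at 100 ng/mL. Unstimulated E, library D at 10 ng/mL and library B at 100 ng/mL were each the highest of their group, and the groups overlapped widely. Rrm2 had the lowest fold change of the 44 genes, -0.46 ± 0.29 (SE, 95% interval -1.02 to 0.10, adjusted p = 0.218), and the widest spread within groups, an SD of 0.47 on the log2 scale. Rrm1, the large subunit, was at -0.061 ± 0.16 (SE, 95% interval -0.36 to 0.24, adjusted p = 0.789). The RPKM ratio of Rrm2 to Rrm1 was 0.22 ± 0.043 at 100 ng/mL and 0.28 ± 0.060 in unstimulated cells (SD, n = 5 each), and the ranges overlapped.

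Fen1 and Lig1 trim and join Okazaki fragments, Exo1 is an exonuclease of mismatch repair, and Ung removes uracil from DNA. None of these 4 was called at 100 ng/mL against unstimulated, with log2 fold changes of 0.17 (Lig1) to 0.40 (Exo1). Exo1 measured 11.7, 14.7, 10.11, 13.7 and 20.2 CPM in unstimulated libraries A to E, 13.3, 10.32, 11.2, 18.3 and 13.2 CPM at 10 ng/mL and 18.3, 19.1, 18.3, 17.6 and 20.01 CPM at 100 ng/mL. The highest library was unstimulated E, and A to D lay below all of the 100 ng/mL ones. Exo1 was at 0.40 ± 0.17 (SE, 95% interval 0.068 to 0.74, adjusted p = 0.0708) against unstimulated, and rose against 10 ng/mL by 0.49 ± 0.17 (SE, adjusted p = 0.0319). Fen1 measured 2.27, 2.33, 1.67, 1.76 and 3.74 CPM in unstimulated libraries A to E, 2.28, 1.89, 1.88, 3.22 and 1.87 CPM at 10 ng/mL and 2.52, 2.77, 2.46, 3.32 and 3.53 CPM at 100 ng/mL. Unstimulated E was again the highest library, with A to D below all of the 100 ng/mL ones, and Fen1 was at 0.31 ± 0.22 (SE, 95% interval -0.12 to 0.73, adjusted p = 0.283). Fen1 has a listed length of 383 of 2422 annotated exonic bases and shares 2039 with Gm10143 and Tmem258, so its counts cover a small part of the gene. Ung measured 5.84, 6.42, 5.52, 5.84 and 7.13 CPM in unstimulated libraries A to E, 6.63, 5.30, 5.64, 5.52 and 6.47 CPM at 10 ng/mL and 7.38, 7.38, 4.82, 7.15 and 8.05 CPM at 100 ng/mL. Of the 100 ng/mL libraries 4 lay above every other library and C was the lowest of all 15. Ung was at 0.18 ± 0.12 (SE, 95% interval -0.064 to 0.42, adjusted p = 0.27).

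Uhrf1 and the chromatin assembly factor genes Chaf1a and Chaf1b carry DNA methylation and histones onto new DNA, and Slbp binds histone mRNA. None of the 4 was called against unstimulated. Chaf1b measured 22.4, 21.5, 18.2, 25.8 and 26.4 CPM in unstimulated libraries A to E, 21.5, 17.9, 19.95, 25.1 and 21.7 CPM at 10 ng/mL and 27.3, 24.6, 29.3, 27.2 and 28.6 CPM at 100 ng/mL. Library B was the lowest at 100 ng/mL and lay below unstimulated D and E and 10 ng/mL D. Chaf1b was at 0.26 ± 0.10 (SE, 95% interval 0.059 to 0.46, adjusted p = 0.0534) against unstimulated and rose against 10 ng/mL by 0.37 ± 0.10 (SE, adjusted p = 0.0102). Chaf1a measured 24.1, 25.0, 19.0, 26.8 and 38.9 CPM in unstimulated libraries A to E, 22.7, 16.8, 21.1, 33.6 and 21.1 CPM at 10 ng/mL and 27.7, 33.6, 27.4, 28.8 and 30.9 CPM at 100 ng/mL. Uhrf1 measured 24.5, 27.5, 21.4, 29.1 and 40.9 CPM in unstimulated libraries A to E, 25.2, 20.2, 23.6, 35.5 and 23.2 CPM at 10 ng/mL and 32.4, 35.5, 25.5, 33.0 and 34.8 CPM at 100 ng/mL. For both genes unstimulated E was the highest library of all 15. Chaf1a had the lowest fold change of the group, 0.15 ± 0.18 (SE, 95% interval -0.21 to 0.51, adjusted p = 0.552), and shares 4648 exonic bases with Ubxn6, while Uhrf1 was at 0.17 ± 0.17 (SE, 95% interval -0.17 to 0.50, adjusted p = 0.467). Slbp was at 0.23 ± 0.093 (SE, adjusted p = 0.0577).

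Cyclin E binds Cdk2 and drives entry into S phase, and E2f1 is a transcription factor of the genes of S phase. Ccne1 rose and E2f1 and Ccne2 were not called. Ccne1 measured 12.3, 11.9, 9.89, 11.4 and 21.2 CPM in unstimulated libraries A to E, 11.2, 8.65, 9.41, 16.9 and 11.7 CPM at 10 ng/mL and 20.9, 21.97, 17.2, 19.96 and 22.4 CPM at 100 ng/mL. Unstimulated E lay among the 100 ng/mL libraries, A to D lay far below, and the highest 10 ng/mL library, D, lay just below the lowest 100 ng/mL one. Ccne1 had the largest fold change of the 44 genes, 0.62 ± 0.20 (SE, adjusted p = 0.0226) against unstimulated and 0.82 ± 0.20 (SE, adjusted p = 0.00476) against 10 ng/mL. The call against unstimulated was lost without unstimulated B, C or D, with adjusted p-values up to 0.0586, and kept in 24 of the 27 alternative fits at the same threshold. Ccne2 measured 9.68, 16.7, 14.2, 16.4 and 24.0 CPM in unstimulated libraries A to E, 14.9, 14.6, 13.8, 19.1 and 14.6 CPM at 10 ng/mL and 21.6, 22.2, 17.2, 18.6 and 24.3 CPM at 100 ng/mL. Unstimulated E and 10 ng/mL D lay within the 100 ng/mL range, and Ccne2 was at 0.36 ± 0.18 (SE, 95% interval 0.00013 to 0.72, adjusted p = 0.13). E2f1 measured 22.2, 23.1, 20.2, 23.2 and 31.3 CPM in unstimulated libraries A to E, 21.1, 19.4, 20.1, 24.8 and 21.3 CPM at 10 ng/mL and 24.4, 25.1, 22.4, 25.1 and 26.04 CPM at 100 ng/mL. Unstimulated E was the highest library and the 100 ng/mL ones overlapped unstimulated B and D. E2f1 was at 0.035 ± 0.10 (SE, 95% interval -0.16 to 0.23, adjusted p = 0.815), the lowest fold change of the group.

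Clspn (claspin), Tipin and Dtl act at the fork in checkpoint signalling, fork protection and the destruction of Cdt1. None was called in either comparison with 100 ng/mL. Clspn measured 21.2, 24.9, 17.96, 24.6 and 36.3 CPM in unstimulated libraries A to E, 21.6, 17.5, 19.8, 32.8 and 22.5 CPM at 10 ng/mL and 29.6, 31.2, 31.2, 28.3 and 33.3 CPM at 100 ng/mL. Unstimulated E was the highest library, 10 ng/mL D lay within the 100 ng/mL range and the other 8 libraries lay below it. Clspn was at 0.30 ± 0.18 (SE, 95% interval -0.050 to 0.64, adjusted p = 0.196) against unstimulated. Dtl had the highest fold change of the 3, 0.32 ± 0.18 (SE, adjusted p = 0.157), and Tipin the lowest, 0.15 ± 0.11 (SE, adjusted p = 0.299).

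At 10 ng/mL against unstimulated no gene of the list was called higher or lower, and neither was any of the 17650 genes tested (0% in each direction) in the edgeR quasi-likelihood test. At an unadjusted p under 0.05 there was 1 gene of the list, Pole, and 844 of all genes tested (4.78%). The DESeq2 Wald test called 8 genes higher and 2 lower over the whole table and limma-voom called none, and none of those was on the list. The log2 fold change was above 0 for 5 of the 44 genes and below 0 for 39, with a median of -0.13, against -0.0027 over all genes tested. The lowest was that of Rrm2, -0.29 ± 0.28 (SE, 95% interval -0.85 to 0.26, adjusted p = 0.969), and the highest that of Pole. Pole measured 80.5, 76.0, 76.2, 70.3 and 54.6 CPM in unstimulated libraries A to E, 97.2, 88.7, 79.7, 70.1 and 94.4 CPM at 10 ng/mL and 77.2, 67.4, 96.5, 75.2 and 86.8 CPM at 100 ng/mL. Pole was lowest in unstimulated E, and its values in the other libraries overlapped between groups, with a fold change of 0.27 ± 0.12 (SE, 95% interval 0.032 to 0.50, adjusted p = 0.969). The median was -0.0023 without unstimulated E and -0.23 without 10 ng/mL D, so single libraries moved it by over 1.5 times.

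At 100 against 10 ng/mL, which asks how the doses differed, 13 genes rose and Orc6 fell. The 13 are 29.5% of the list, next to 19.9% of all genes tested that were called higher, and Orc6 is 2.27%, against 20.6% called lower. The fold change was above 0 for 41 genes, with a median of 0.28, against 0.0078 over all genes tested. Those called higher were Pola2, Mcm6, Pcna, Mcm2, Gins3, Ccne1, Mcm3, Tyms, Chaf1b, Cdt1, Rpa2, Cdc45 and Exo1, at 0.37 to 0.82 on the log2 scale. This comparison uses the same 100 ng/mL libraries as that with unstimulated cells, so the lists are not independent. Without 10 ng/mL D 33 genes rose (75.0%, against 20.7% of all genes in that fit). Without unstimulated E 23 did (52.3%, against 20.7%), and without these and 100 ng/mL B 38 (86.4%, against 22.8%). Library D was singled out in these same data and was the highest of its group for 39 of the 44 genes. The larger counts without it are therefore no independent support for a rise. The values of Cdc45, Rpa2, Cdt1 and Exo1 were called in 23, 23, 25 and 20 of the 27 alternative fits at an adjusted p of 0.05, and the other 10 calls were kept in each such fit that tested the gene. At an adjusted p of 0.01 8 of the 13 genes stayed called (18.2% of the list, against 13.4% of all genes) and Orc6 did not. With a 1.5-fold minimum 1 of the 13 did (2.27%, against 7.35%).

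The 44 genes varied together between libraries of a group. The deviations of 2 genes from their group means had a mean correlation of 0.69 over 946 pairs of genes in 15 libraries, against 0.001 over all pairs of genes tested, and 883 of the pairs were above 0. This was not particular to the 44 genes. The same mean was 0.862 for the 30 G2 and mitosis genes and 0.857 for 9 mitochondrially encoded transcripts. It was 0.395 for the 35 other replication genes and 0.086 for the 28 E2F, RB and G1 to S regulators. The points share their libraries, so these means are a description. Helicase genes had a mean of 0.88 and the polymerase and primase genes 0.14. Cdc6, Exo1 and Mcm5 followed the mean of the other 43 genes most closely, at 0.98 each. Pola2 did not, at 0.006, and Pole ran against it, at -0.68. Orc6 and Ung were at 0.41 and 0.43. The spread within groups was narrowest for Orc6 (SD 0.080) and Pola2 (0.10), and its median over the list was 0.21, against 0.17 over all genes tested.

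Per length, Rrm1 had the highest level of the 44 genes in unstimulated cells, with 22.6 ± 5.55 RPKM (SD, n = 5), and Ung the lowest, with 0.606 ± 0.0703 RPKM. Tipin, Mcm3, Mcm2, Orc6, Mcm6 and Pcna followed Rrm1 at 16.6 ± 3.10, 15.5 ± 2.49, 15.03 ± 2.17, 13.9 ± 0.913, 13.5 ± 1.84 and 13.3 ± 1.78 RPKM. Neighbours in this order among these 6 differed by less than the larger of their SDs. At 100 ng/mL the levels were 21.1 ± 1.88 RPKM for Rrm1, 18.9 ± 1.72 for Mcm2 and 18.1 ± 0.882 for Mcm3. The listed length was 15.8 to 48.7% of the annotated exonic length for 6 genes, Mcm2, Gins2, Pola2, Rrm1, Fen1 and Chaf1a, and 15 of the 44 overlap another gene in the annotation, so ranks between genes are approximate. For 12 of these 15 the listed length lay within 2% of the exonic length not shared with another gene.

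Beyond the 44 genes, 12 of 35 other replication genes rose at 100 ng/mL against unstimulated and none fell, with a median of 0.18. The share that rose was 34.3%, next to 21.4% of all genes tested. Pold3, a subunit of polymerase delta, rose by 0.61 ± 0.061 (SE, adjusted p = 1.64e-06), Mcmbp, which binds Mcm proteins, by 0.23 ± 0.045 (SE, adjusted p = 0.000791) and the origin firing kinase gene Cdc7 by 0.52 ± 0.12 (SE, adjusted p = 0.00234). Of 28 E2F, RB and G1 to S regulators 7 rose (25.0%) and 5 fell (17.9%), shares near the 21.4% and 21.5% of all genes tested. The CDK inhibitor gene Cdkn2b rose by 1.18 ± 0.13 (SE, adjusted p = 3.30e-06) and Myc, a growth transcription factor, by 1.06 ± 0.13 (SE, adjusted p = 1.35e-05), and Rbl2, a relative of the retinoblastoma gene, changed by -0.46 ± 0.049 (SE, adjusted p = 3.62e-06). Of 30 G2 and mitosis genes none was called in the edgeR quasi-likelihood test, with 12 fold changes above 0 and 18 below, a median of -0.090, a smallest adjusted p of 0.0957 and 1 unadjusted p under 0.05. At 10 ng/mL against unstimulated no gene of these lists was called, and all 30 G2 and mitosis genes had a fold change below 0, with a median of -0.25. These 30 genes varied together between libraries, with a mean correlation of 0.862, so they are not 30 separate observations. Their scores were 0.10 ± 0.33 in unstimulated libraries and -0.16 ± 0.38 at 10 ng/mL (mean ± SD), and the groups overlapped. Against 10 ng/mL the 100 ng/mL cells had 12 of 35, 7 of 28 and 0 of 30 genes called higher and 0, 5 and 0 called lower, next to 19.9% and 20.6% of all genes tested. Pold3, Dut (dUTP removal) and Dna2 (a nuclease and helicase) led the 35 with 0.56 ± 0.061 (SE, adjusted p = 4.26e-06), 0.57 ± 0.12 (SE, adjusted p = 0.00183) and 0.54 ± 0.12 (SE, adjusted p = 0.00223). Rbl2, Cdkn2b and the CDK inhibitor gene Cdkn1c led the 28 with -0.46 ± 0.049 (SE, adjusted p = 3.72e-06), 1.02 ± 0.12 (SE, adjusted p = 1.36e-05) and -1.88 ± 0.26 (SE, adjusted p = 5.14e-05).

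Markers of cell types also moved with the 100 ng/mL group. Over all genes tested 21.4% were called higher and 21.5% lower at 100 ng/mL against unstimulated. Of 6 LEC markers 4 rose (66.7%, Flt4, Lyve1, Cdh5 and Pecam1), and Prox1 and Pdpn were not called. The summed level of the 6 was 6578 to 9129 CPM at 100 ng/mL and 4429 to 5123 CPM in unstimulated cells. Of 14 fibroblastic and mural markers 12 fell (92.3% of the 13 tested) and 1 was not called, with sums of 929 to 1362 CPM and 3168 to 4659 CPM in the same order. Thy1 alone gave 658 to 802 CPM of the sum at 100 ng/mL, with a mean of 738 CPM against 1067 CPM in unstimulated cells. The mean of Dcn was 30.9 against 760 CPM and that of Tagln 22.3 against 400 CPM. Of 8 leukocyte markers tested 7 fell (87.5%) and 1 was not called. Their sums were 15.7 to 37.0 CPM at 100 ng/mL and 45.3 to 122.5 CPM in unstimulated cells. Of 5 epithelial markers 3 fell (75.0% of the 4 tested) and 1 was not called, with sums of 10.9 to 37.2 CPM and 70.5 to 122.3 CPM in the same order. Lum, Cd3e and Epcam were too low to test, with at most 6.26 estimated counts in any library. Of 9 mitochondrially encoded transcripts 8 rose (88.9%) at 100 ng/mL, with sums of 11698.5 to 16271 CPM, and 8345 to 12122 CPM in unstimulated cells. At 10 ng/mL their sums were 12201 to 15897 CPM, above every unstimulated library. Their median log2 fold change against unstimulated was 0.46 at 10 ng/mL and 0.48 at 100 ng/mL. None of them was called at 10 ng/mL against unstimulated or at 100 against 10 ng/mL. In these bulk libraries fewer cells of a type and less RNA per cell cannot be told apart. The part of these markers in the values of the replication genes was not tested.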

How the data were processed

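RNA of cultured mouse LECs was measured in 15 poly-A selected, stranded libraries, per the labels. The authors deposited an estimated count and an RPKM value per gene and library, and a gene length, per the file headers. The estimated counts the authors deposited were in part not whole. The RPKM values deposited by the authors used a library total 1.86 to 1.92 times the sum of the counts. Tools listed in the submitters' processing notes are FastQC, limma and Bowtie2, with mm10 and GRCm38 as builds. Not given in the sources used here are the counter, its handling of strand and of multi-mapping reads, and the annotation release, so overlapping genes are uncertain. Coordinates and overlaps are from GENCODE M21 on GRCm38.

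Counts were rounded to whole numbers, genes kept by filterByExpr (17650), TMM factors computed and a quasi-likelihood model of the 3 groups fitted to all 15 libraries in edgeR 4.0.16 (R 4.3.3), with Benjamini-Hochberg adjustment and a threshold of 0.05. CPM are counts scaled to TMM library sizes, and scores use log2 CPM with a prior count of 2. Depth was 27784906 to 38590841 counts per library, and precision rests on 5 libraries a group. Within groups every pair of libraries differed by more than counting noise (smallest chi-square per degree of freedom 8.68). The labels do not say whether libraries with the same letter belong together, and the main fit did not pair them. Same-lettered deviations of the 100 ng/mL and unstimulated libraries correlated at -0.34 to 0.13. These 5 values cannot exclude a shared culture or day.

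The genes and lists were chosen with earlier results of these data known. Named genes are all members called in any comparison, 1 or more preset members of each role, the extremes of each role, and up to 3 called genes with the smallest p of each other list. Vps35, Slbp, Pole and the uncalled Mcm, primase and reductase genes were added after their values were seen. Alternatives were DESeq2 1.42.0 size factors and Wald test, scaling by library size only, a minimum of 10 CPM in 5 libraries or no filter, limma-voom (limma 3.58.1), limma on log2(RPKM + 1) and log2(RPKM + 0.1), fits of only 10 libraries, a replicate block, 3 surrogate variables (sva 3.50.0), the removal of 3 libraries or of each library in turn, an adjusted p of 0.01 and a 1.5-fold minimum. A second deposited table, of whose 6719 rows 6718 were also in the first, was not used.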

Additional observations from a re-analysis of the deposited data

Results flagged for a closer look

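Within its group 1 library stood far from the other 4 in 10 of 78 tests, by a gap over 0.71 of the group's range. The tests were made on 24 named genes and the scores of 2 lists in each of 3 groups. In independent tests chance gives about 1 in 20. That rate does not apply here, since the genes varied together between libraries and some were named for being called. At 100 ng/mL library B was the high one for Orc6, at 41.8 CPM against 35.5 to 37.3 CPM, and for Rrm2, at 34.8 CPM against 19.1 to 23.3 CPM. At 100 ng/mL library C was the low one for Mcm2, at 102.8 CPM against 125.5 to 128.7 CPM, for Cdt1, at 22.8 CPM against 29.1 to 31.0 CPM, and for Ung, at 4.82 CPM against 7.15 to 8.05 CPM. At 10 ng/mL library D was the high one for Rrm2, at 45.6 CPM against 20.1 to 24.9 CPM, and for Ccne2, at 19.1 CPM against 13.8 to 14.9 CPM. Unstimulated E was the high one for Rrm2, at 60.6 CPM against 22.2 to 33.2 CPM, for E2f1, at 31.3 CPM against 20.2 to 23.2 CPM, and for Ccne1, at 21.2 CPM against 9.89 to 12.3 CPM. All 10 lie in 4 libraries, unstimulated E, library D at 10 ng/mL and libraries B and C at 100 ng/mL.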

How the results depend on the processing

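For 100 ng/mL against unstimulated, 9 genes rose (20.5%, against 21.4% of all genes tested) and 1 fell (2.27%, against 21.5%). With 3 surrogate variables 23 rose (52.3%, against 28.7% of all genes in that fit) and 2 fell (4.55%, against 29.3%). The surrogate variables were estimated from these same libraries. The larger counts with them, here and below, are therefore no independent support for a rise. Without the 3 libraries that stood apart in these data 24 rose (54.5%, against 23.1%). Those 3 were unstimulated E, library D at 10 ng/mL and library B at 100 ng/mL. At an adjusted p of 0.01 5 rose (11.4%, against 15.1%) and 0 fell (against 15.7%). With a 1.5-fold minimum 1 rose (2.27%, against 7.83%) and 0 fell (against 12.5%). Leaving out 1 library gave 5 to 20 genes that rose and 1 that fell in each fit. The 5 without unstimulated B were 11.4% (against 19.5% of all genes), and the 20 without unstimulated E were 45.5% (against 21.0%). For 10 ng/mL against unstimulated the surrogate variables gave 1 gene that rose, Pole (2.27%, against 0.408% of all genes), and the other alternatives gave 0. For 100 against 10 ng/mL, 13 rose (29.5%, against 19.9% of all genes tested) and 1 fell (2.27%, against 20.6%). The fit of only those 10 libraries gave 22 that rose, the surrogate variables 39 and 2 that fell, the removal of the 3 libraries 38, an adjusted p of 0.01 8 and 0, and the 1.5-fold minimum 1 and 0. Leaving out 1 library gave 9 to 33 that rose and 1 that fell. The 9 without 10 ng/mL B were 20.5% (against 17.5% of all genes), and the 33 without 10 ng/mL D were 75.0% (against 20.7%). The cause of these differences was not tested. The median fold changes stayed above 0 in both comparisons with 100 ng/mL and below 0 at 10 ng/mL, and leaving out 1 library moved them over 0.11 to 0.29, 0.23 to 0.43 and -0.23 to -0.0023. With the replicate letter as a block 12 genes rose (27.3%, against 19.8% of all genes) and 1 fell (2.27%, against 20.3%) against unstimulated. Against 10 ng/mL 14 rose (31.8%, against 18.1%) and 1 fell (2.27%, against 19.2%). The labels do not say that the letters pair the libraries. Of 694 alternative values for the 24 calls 599 kept the call, 95 lost it and none changed direction. Depth was lowest for Fen1, with 54 to 138 counts per library, and Orc1, with 95 to 272.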
